A study of Homo sapiens with 12 samples.

Results

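The miRNAs miR-142, miR-150 and miR-223 were followed as 5 mature sequences, hsa-miR-142-5p, hsa-miR-142-3p, hsa-miR-150-5p, hsa-miR-223-3p and hsa-miR-223-5p, which were chosen by name from the 2588 rows of the count table. The libraries came from MDA-MB-231, an established human breast cancer cell line of mesenchymal character, and from the extracellular vesicles (EVs) it shed. The 3 lines were a control carrying the empty vector SHC001, a RAB27A knockdown carrying a lentiviral short hairpin RNA, and a miR-122 knockout made with CRISPR-Cas9 and a pair of guide RNAs. Cells and EVs of each line gave 6 groups of 2 replicates, 12 libraries in all. The labels name no vector for the knockout line and no other control line for it. Each condition was 1 line, and the labels do not say whether replicates were separate cultures, so each p-value below reflects the spread of these samples alone, and that spread may be technical. Before collection the cells grew in medium with 10% fetal bovine serum. EVs were then collected over 24 h in medium without serum that held 1% bovine albumin, and were pelleted by ultracentrifugation.

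A miRNA is cut from a hairpin precursor, and either arm, named 5p or 3p by its place in the hairpin, can be loaded into an Argonaute protein, where the seed near the 5′ end pairs with target mRNAs. miR-142 is made across the blood cell lineages, miR-150 is best known from mature lymphocytes, and miR-223 from neutrophils and other myeloid cells. None of them is a typical product of breast epithelium. RAB27A is a small GTPase that helps multivesicular endosomes dock at the plasma membrane before they release exosomes.

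The mature sequences are shown because the counts rest on telling them from other small RNAs. They are from RefSeq on GRCh38.p14, where 4 of the 5 had an entry, and the seed, bases 2 to 8, is in capitals.
miR-142-5p: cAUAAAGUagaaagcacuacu
miR-142-3p: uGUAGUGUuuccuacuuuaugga
miR-223-3p: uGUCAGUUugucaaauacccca
miR-223-5p: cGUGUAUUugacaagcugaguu
No 2 of these 4 shared a seed. Among 2370 mature names with a sequence, miR-5590-3p alone shared a seed with one of them, that of miR-142-5p, and it had 0 counts in all libraries. The closest other mature sequence differed by 7 edits from miR-142-3p and by 8 edits from each of the other three.

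Both arms of miR-142 are cut from 1 hairpin, shown because the shares of its arms are described below. It is 87 bases long, lies at chr17:58331232-58331318 on the minus strand, and has the 5p and then the 3p arm in capitals.
MIR142: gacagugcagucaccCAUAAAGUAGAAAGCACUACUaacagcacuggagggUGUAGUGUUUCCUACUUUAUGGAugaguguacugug
In GENCODE release 29 this hairpin lies in an exon of the non-coding gene AC004687.1 on the same strand, and inside TSPOAP1-AS1 on the opposite strand, outside its exons. The MIR223 hairpin, 110 bases at chrX:66018870-66018979 on the plus strand, lies in an exon of the non-coding gene AL034397.3.

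The deposited table held raw counts per mature miRNA, and levels are given as CPM, a miRNA's count scaled to a common library total. Totals ran from 3140610 to 11840597 counts in cells and from 2387336 to 3754673 in control and knockout EVs, but were 164656 and 170366 in the knockdown EVs. A single count was therefore worth 6.07 and 5.87 CPM in the knockdown EVs, against 0.0845 and 0.0904 CPM in control cells. The knocked-out miR-122-5p had 5 and 4 counts in control cells and 0 in both knockout cell libraries, and stood at 331 and 251 CPM in control EVs and at 1.07 and 0.947 CPM in knockout EVs. In the knockdown line, where it was not targeted, it was also below control in EVs, at 42.5 and 29.3 CPM. Its level in knockdown cells was 12.3 and 12.7 CPM, against 0.422 and 0.361 CPM in control cells. RAB27A mRNA is not measured by small RNA sequencing. The 6 miRNAs listed as abundant in the line summed to 462139 to 719157 CPM in every library.

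In control EVs all 5 miRNAs were present, and together they made up 0.201% and 0.179% of the counts. miR-142-5p led with 1048 and 874 CPM (961 ± 123, SD, n = 2), at ranks 69 and 72 among the miRNAs of its library. The levels of miR-223-3p were 344 and 342 CPM, those of miR-142-3p 355 and 292 CPM, and those of miR-150-5p 255 and 269 CPM. These 3 lay close together: miR-223-3p fell between the replicates of miR-142-3p, while miR-150-5p stayed below both. miR-223-5p, the minor arm of its hairpin, was far lower at 10.9 and 12.3 CPM.

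The cells held little of any of them. miR-142-3p stood at 4.73 and 5.87 CPM in control cells, at 6.33 and 5.73 CPM in knockdown cells, and at 0.688 and 1.32 CPM in knockout cells. miR-142-5p stood at 5.66 and 5.60, at 6.96 and 7.64, and at 0.393 and 1.22 CPM in the same groups. Knockout cells were thus the lowest for both arms, on 7 and 13 counts of miR-142-3p and 4 and 12 of miR-142-5p. Lower levels were common there: 34.6% of 613 miRNAs tested were called lower in knockout than in control cells by edgeR's test. miR-223-3p and miR-223-5p had 0 counts in all 6 cell libraries, whose 49212939 counts allow a level of up to 0.061 CPM at a limit of 3 counts. miR-150-5p had 1 count, in knockout cells replicate 2. The plot of levels in the 12 libraries shows control EVs apart from all other groups except for miR-223-5p. Its control EV levels lie below the limits of the knockdown EV libraries, 18.2 and 17.6 CPM.

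**Figure D1:**
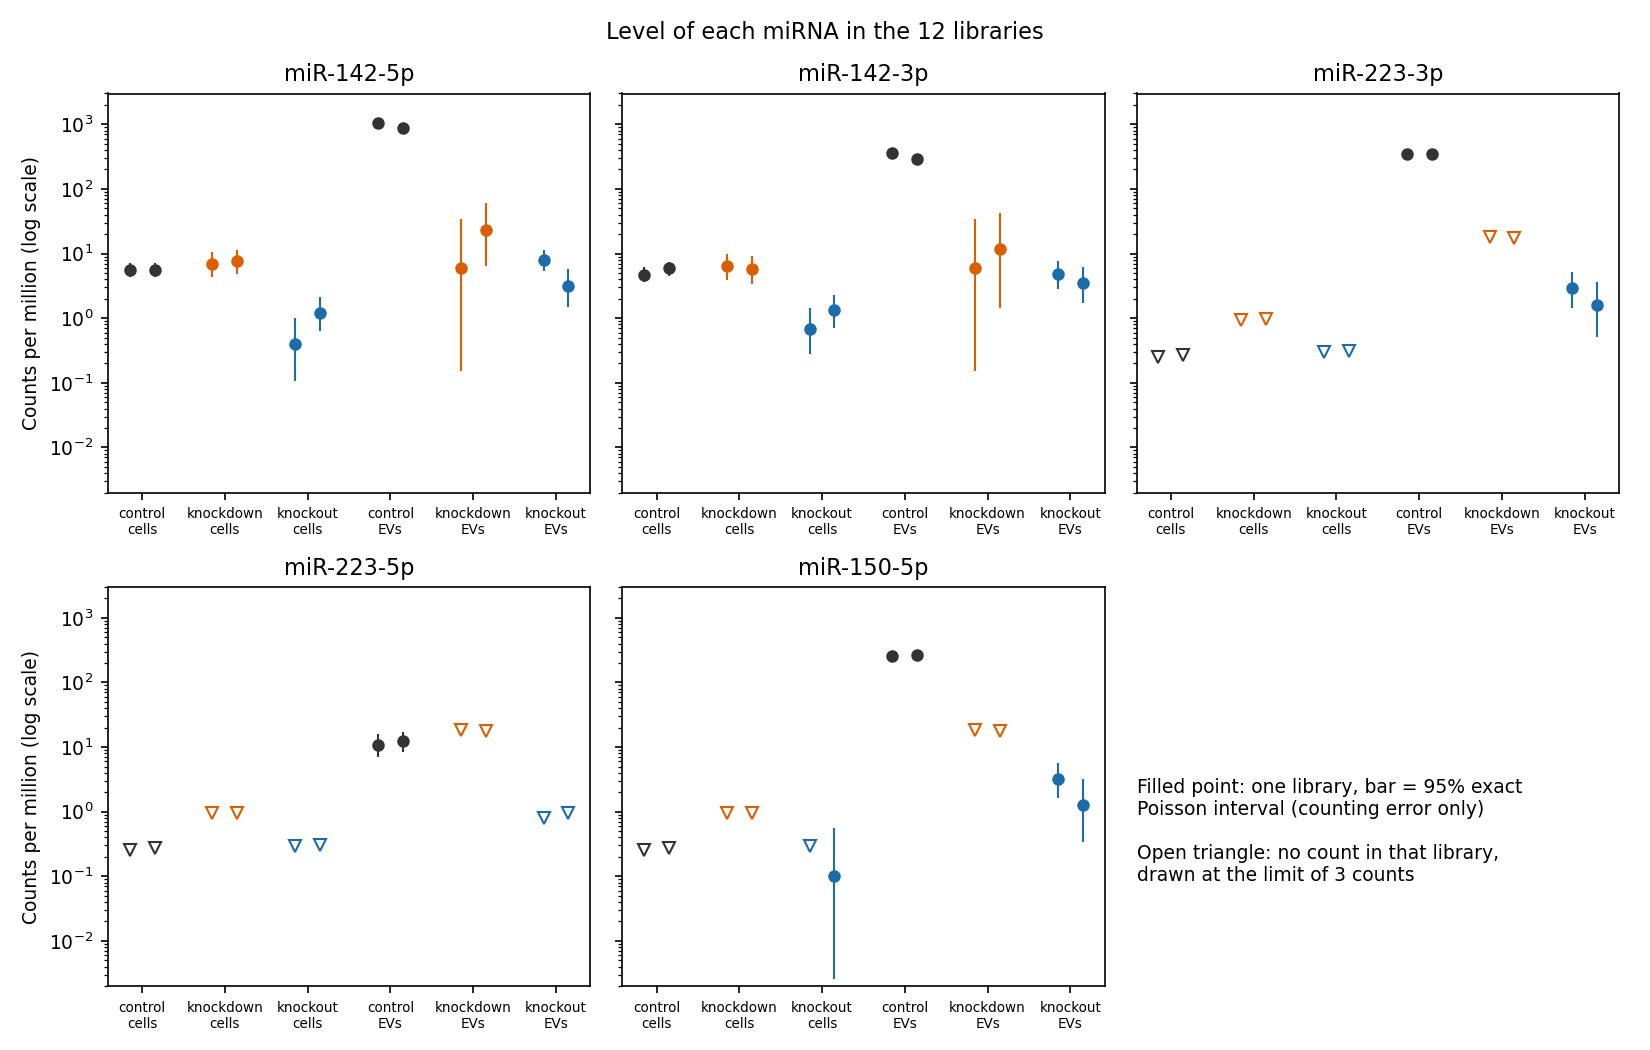
Level of each miRNA in every library, in CPM on a log axis, with 95% exact Poisson intervals as bars and open triangles at the limit of 3 counts where none was seen. The control EVs stand apart for all but miR-223-5p, with miR-142-5p at 874 to 1048 CPM, while all other libraries with a count lie at or below 23.5 CPM. For miR-223-5p control EVs (10.9 and 12.3 CPM) lie below the limits of knockdown EVs (18.2 and 17.6 CPM).

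Within the control line all 5 miRNAs were higher in EVs than in cells by edgeR's quasi-likelihood test with Benjamini-Hochberg adjustment, while 30.8% of the 574 miRNAs tested were called higher. Only through control EVs did miR-150-5p, miR-223-3p and miR-223-5p pass the low-count filter, so their direction was close to fixed in advance. The log2 difference was 7.27 (SE 0.21) for miR-142-5p, a 154-fold difference with adjusted p = 4.99e-34, and 5.79 (SE 0.20) for miR-142-3p, a 55.2-fold difference with adjusted p = 1.47e-30. With no count in control cells, miR-223-3p was at least 2620-fold higher (adjusted p = 9.87e-33), miR-150-5p at least 2002-fold (adjusted p = 9.1e-32), and miR-223-5p at least 88.9-fold (adjusted p = 3.34e-13). The call for miR-223-5p was lost with DESeq2 (adjusted p = 0.17). A level here is a share of a library, so fewer vesicles or cells of one kind and less RNA in each cannot be told apart. RNA of cells and of EVs was extracted with different reagents, and that step and the fraction cannot be told apart either.

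Knockdown EVs had almost none of the 5. miR-142-5p had 1 and 4 counts, or 6.07 and 23.5 CPM, and miR-142-3p had 1 and 2 counts, or 6.07 and 11.7 CPM. miR-150-5p, miR-223-3p and miR-223-5p had 0 counts in both libraries, which allows up to 8.96 CPM. At the control EV level these shallow libraries would have held 158 and 163 counts of miR-142-5p, 53.0 and 54.8 of miR-142-3p, 56.5 and 58.5 of miR-223-3p, and 43.2 and 44.7 of miR-150-5p. For miR-223-5p only 1.92 and 1.98 counts would have been seen, so this depth can barely show its loss.

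Against control EVs, 5 of 5 were lower in knockdown EVs by edgeR's test, where 27.5% of the 488 miRNAs tested were lower and 18.9% higher. Of these, miR-150-5p, miR-223-3p and miR-223-5p passed the low-count filter only through control EVs. The direction of their difference was therefore close to fixed in advance. miR-142-5p fell by 6.12 on the log2 scale (SE 0.43, adjusted p = 1.4e-07). For miR-142-3p, with 3 counts in all, the pooled level was 35.9-fold lower (95% binomial interval 12.3 to 175, adjusted p = 7.09e-07). The bounds were at least 38.3-fold lower for miR-223-3p (adjusted p = 3.81e-07) and at least 29.3-fold lower for miR-150-5p (adjusted p = 1.79e-06). The bound for miR-223-5p was only 1.30-fold (adjusted p = 0.036), and 7 alternatives ended its call, with adjusted p between 0.0721 and 0.224; they included leaving out any 1 of the 4 libraries. Without knockdown EVs replicate 2, which held 4 of the 5 counts of miR-142-5p, its log2 difference was -7.64 and that of miR-142-3p -6.06; a correction for GC content gave -5.34 and -4.53.

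**Figure D2:**
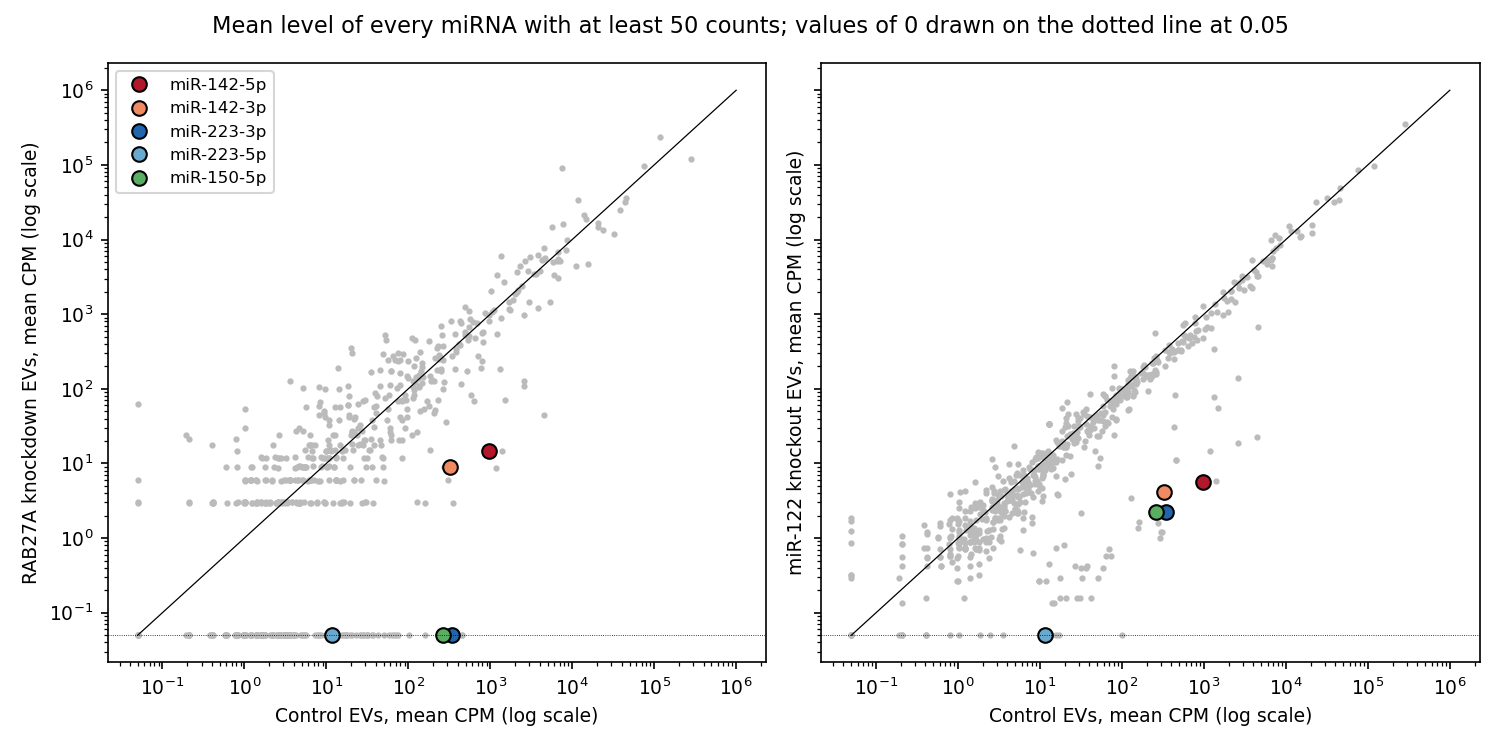
Mean level in control EVs (horizontal) against knockdown EVs and knockout EVs (vertical), in CPM on log axes, for every miRNA with at least 50 counts in all and for the 5 miRNAs followed here, with the diagonal of equal levels. The 5 lie below the diagonal in both panels, and those with no count are drawn on the dotted line.

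Knockout EVs were sequenced more deeply and kept a low level of 4 of the 5. miR-142-5p had 30 and 10 counts (7.99 and 3.16 CPM), and miR-142-3p had 18 and 11 counts (4.79 and 3.47 CPM). miR-150-5p had 12 and 4 counts (3.20 and 1.26 CPM) and miR-223-3p 11 and 5 counts (2.93 and 1.58 CPM). miR-223-5p had 0 counts, which allows up to 0.433 CPM. Replicate 1 was the higher for each of the 4 detected, by 1.38-fold to 2.53-fold, yet none came near control EVs.

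All 5 were lower in knockout EVs than in control EVs by edgeR's test, where 22.3% of the 488 tested were lower and 18.9% higher. Here too miR-150-5p, miR-223-3p and miR-223-5p were tested only because control EVs were high, so their direction was close to fixed in advance. The log2 difference was -6.99 for miR-142-5p (SE 0.27, adjusted p = 2.84e-10), -6.81 for miR-223-3p (SE 0.23, adjusted p = 3.08e-10), -6.42 for miR-150-5p (SE 0.25, adjusted p = 8.19e-10) and -5.88 for miR-142-3p (SE 0.23, adjusted p = 2.84e-10). On a linear scale these were 128-fold, 112-fold, 85.4-fold and 58.8-fold. The level of miR-223-5p, not seen there, was lower by at least 26.9-fold (adjusted p = 3.42e-05). Without knockout EVs replicate 1 the difference of miR-142-5p was -7.86 and that of miR-150-5p -7.27. Knockdown and knockout were both set against the same 2 control EV libraries, so these comparisons are not independent of each other.

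Set against each other, knockout and knockdown EVs differed in none of the 5 by edgeR's test, while 40.4% of all miRNAs tested were called; 0 of the 5 had an unadjusted p under 0.05 and DESeq2 called 0. The pooled level in knockdown over knockout EVs was 2.14 (95% interval 0.417 to 6.90) for miR-142-3p and 2.58 (0.795 to 6.54) for miR-142-5p. For miR-150-5p and miR-223-3p the knockout EV level lay under the limit of the knockdown EVs, so no difference was detectable at this depth. miR-223-5p had 0 counts in both groups, so no difference could have been called for it. That 0 of the 5 were called is therefore no sign that the groups were alike.

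In cells the lines parted differently. Knockdown cells did not differ detectably from control cells in the arms of miR-142, the only 2 of the 5 that could be tested: 0 were called, 0 had an unadjusted p under 0.05 and DESeq2 called 0, against 53.8% of 613 miRNAs called. The knockdown to control ratio of pooled levels was 1.14 (0.771 to 1.66) for miR-142-3p and 1.30 (0.905 to 1.83) for miR-142-5p. Both arms were lower in knockout than in control cells, where 34.6% of the miRNAs tested were lower. miR-142-5p fell by 2.46 on the log2 scale (SE 0.38, adjusted p = 1.12e-05) and miR-142-3p by 2.06 (SE 0.36, adjusted p = 4.44e-05) by edgeR's test. A correction for GC content moved these to -1.18 (adjusted p = 0.0189) and -0.91 (adjusted p = 0.0397); the arms have 33.3% and 34.8% GC, against a median of 52.2% over mature sequences. Without knockout cells replicate 2 the difference of miR-142-5p was -3.34.

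Against knockdown cells, both arms were again lower in knockout cells, where 33.8% were lower, by 2.85 (SE 0.43, adjusted p = 6.98e-06) for miR-142-5p and 2.26 (SE 0.42, adjusted p = 8.16e-05) for miR-142-3p on the log2 scale. With the GC correction these were -1.86 and -1.36, and without knockout cells replicate 2 miR-142-5p stood at -3.73.

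**Figure D3:**
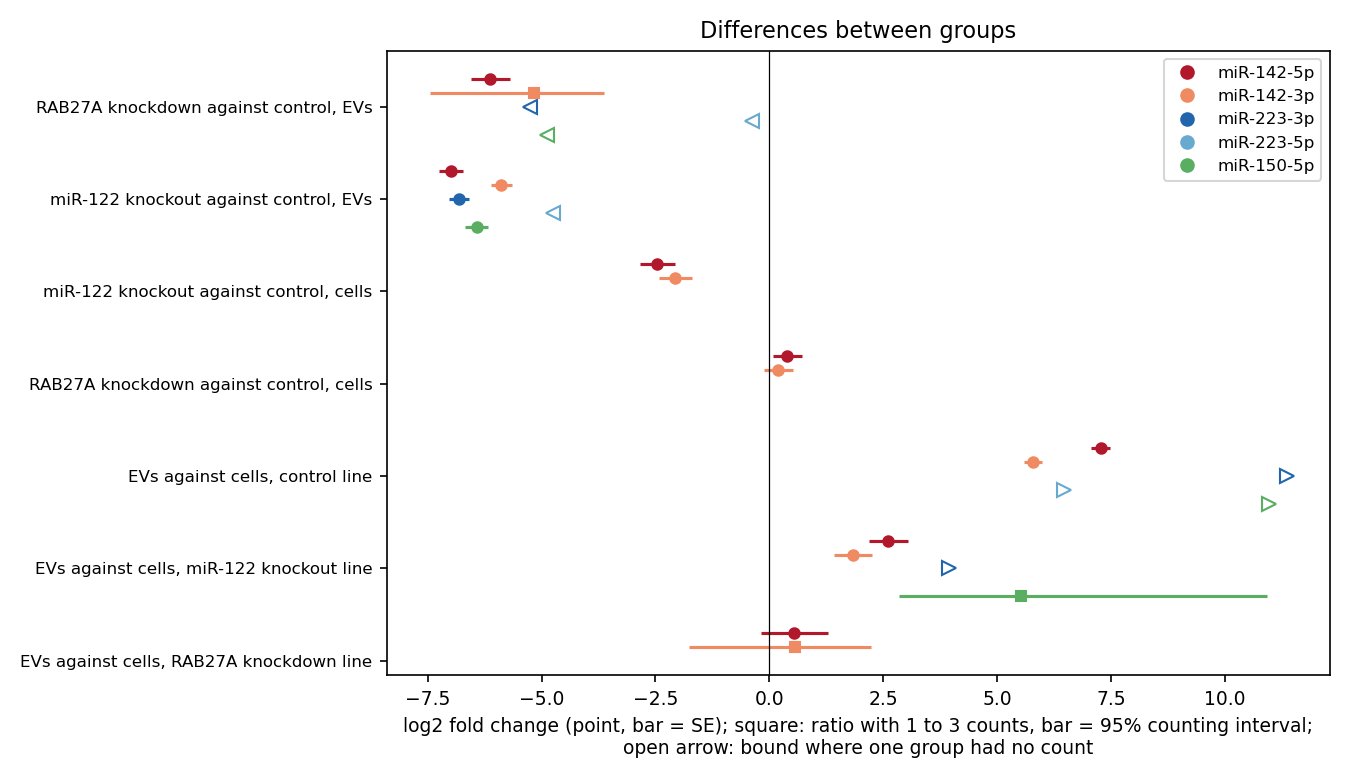
Differences of each miRNA in 7 comparisons on a log2 scale, as edgeR's fitted value with its SE (points), the ratio of pooled levels with its 95% counting interval where a group had 1 to 3 counts (squares), or a bound where a group had none (open arrows). Values in EVs of both altered lines lie left of 0, and those of EVs against cells in the control line lie right of 0.

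The excess in EVs over cells was also examined within each altered line. In the knockdown line no excess was detected: 0 of the 5 were called by edgeR, 0 had an unadjusted p under 0.05 and DESeq2 called 0, against 19.3% of miRNAs called. The EV to cell ratio was 2.04 (95% interval 0.634 to 5.12) for miR-142-5p and 1.48 (0.293 to 4.68) for miR-142-3p, and the other 3 had no count in either fraction. In the knockout line 4 of the 5 were higher in EVs than in cells, where 33.3% were higher. miR-142-5p was 6.09-fold higher (log2 2.61, SE 0.43, adjusted p = 6.67e-07), miR-142-3p 3.57-fold (log2 1.84, SE 0.42, adjusted p = 1.82e-04), and miR-223-3p at least 15.4-fold (adjusted p = 2.95e-07). miR-150-5p, with 16 counts in EVs and 1 in cells, had a ratio of 46.2 (7.18 to 1939, adjusted p = 2.9e-06). With the GC correction the log2 differences were 1.65 for miR-142-5p and 0.96 for miR-142-3p (adjusted p = 0.0426). Without knockout cells replicate 2 that of miR-142-5p was 3.49, and without knockout EVs replicate 1 it was 1.88. The ratio of miR-150-5p rests on a single count in cells, and it did not pass the low-count filter when only the knockout line's libraries were fitted.

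The change of the EV excess between lines was tested as an interaction. Relative to the control line, the EV to cell difference in the knockdown line was smaller by 6.72 (SE 0.54, adjusted p = 8.11e-15) for miR-142-5p and by 5.69 (SE 0.61, adjusted p = 8.06e-11) for miR-142-3p on the log2 scale by edgeR's test; 2 of the 5 were called, with 14.3% of miRNAs called lower. These values rest on 5 and 3 counts in the knockdown EVs, where the SE can be smaller than counting error. In the knockout line 3 of the 5 were called, with 23.3% called lower. There miR-142-5p was smaller by 4.66 (SE 0.61, adjusted p = 5.15e-09), miR-142-3p by 3.95 (SE 0.52, adjusted p = 7.12e-09) and miR-150-5p by 8.32 (SE 2.62, adjusted p = 0.00736). As miR-150-5p passed the low-count filter only through control EVs, the direction of its change was close to fixed in advance. The value of miR-150-5p rests on the single count in knockout cells replicate 2 and was not called without that library (adjusted p = 1). Without knockout cells replicate 2 the knockout line's values were -3.57 for miR-142-5p and -3.32 for miR-142-3p, and with the GC correction -5.44 and -4.64. Without knockout EVs replicate 1 miR-142-5p stood at -5.41. In the knockdown line miR-142-5p stood at -6.08 without knockdown EVs replicate 1 and at -7.99 without replicate 2. The knockdown line had no count of miR-150-5p or miR-223 in either fraction, so edgeR could estimate no such change for them. Nor could it for miR-223-3p and miR-223-5p in the knockout line, as control and knockout cells had 0 counts of both.

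The 2 arms of miR-142 had near-equal counts in cells, while the 5p arm led in control EVs. The 5p arm made up 54.5% and 48.8% of the miR-142 counts in the control cell libraries and 51.6% of 370 counts over all cells (exact Clopper-Pearson 95% interval 46.4 to 56.8). In control EVs it made up 74.7% and 75.0%, or 74.8% over both libraries (73.7 to 75.9), so that 2.97 counts of the 5p arm were seen for each of the 3p arm. The shares in control cells and control EVs did not overlap. The knockout EV libraries gave 62.5% and 47.6%, or 58.0% over both (45.5 to 69.8), an interval that covers that of all cells. The 8 counts in knockdown EVs gave 62.5% (24.5 to 91.5), an interval that covers both control groups. For miR-223 the 3p arm took 96.7% (95.8 to 97.5) of the counts in control EVs, and all 16 counts in knockout EVs. Arm shares were described and not tested.

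**Figure D4:**
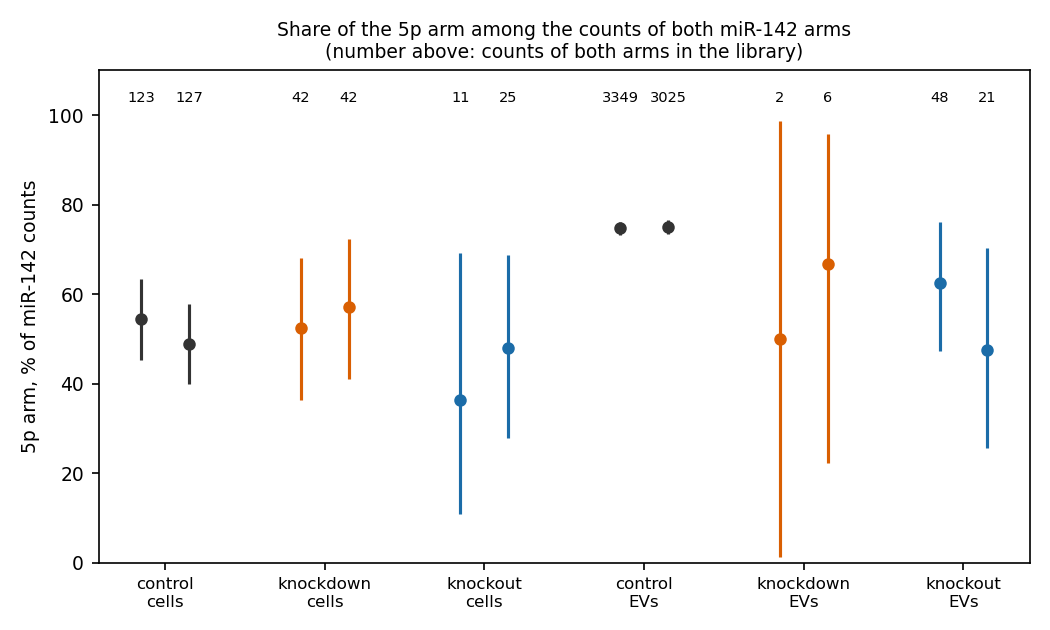
Share of the 5p arm among miR-142 counts in each library, in percent, with exact Clopper-Pearson 95% intervals as bars and the number of counts above. Control EVs lie at 74.7% and 75.0%, above the 48.8% and 54.5% of control cells.

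Within the 5, the shares in each EV group were as follows. In control EVs miR-142-5p was 50.5% (49.5 to 51.5) of their 9449 counts, miR-223-3p 18.1%, miR-142-3p 17.0%, miR-150-5p 13.8% and miR-223-5p 0.614%. Of the 101 counts in knockout EVs, miR-142-5p was 39.6% (30.0 to 49.8), miR-142-3p 28.7% (20.1 to 38.6), and miR-150-5p and miR-223-3p 15.8% each (9.33 to 24.4). These shares were described and not tested.

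Lists of markers of other cell types were read in the same libraries. The 5 erythroid miRNAs, led by miR-451a and miR-486-5p, summed to 8107 to 9515 CPM in control EVs, 158 to 229 in knockdown EVs and 149 to 207 in knockout EVs, against 263 to 278 in control cells. In both altered lines' EVs 4 of the 5 tested were lower than in control EVs. Over the 488 miRNAs tested, 27.5% were lower in knockdown EVs and 22.3% in knockout EVs. miR-144-5p passed the low-count filter only through control EVs, so its direction was close to fixed in advance. The 9 stromal miRNAs were led by miR-143-3p and miR-199a-3p (miR-199b-3p had the same counts). They summed to 3378 to 3497, 112 to 115 and 28.7 to 43.9 CPM in the 3 EV groups. In each altered line 7 of 7 tested were lower. Of those 7, miR-145-5p, miR-145-3p, miR-199b-5p and miR-214-3p passed that filter only through control EVs. Their direction was close to fixed in advance too. The 2 arms of the endothelial miR-126 summed to 2648 to 2966, 231 to 276 and 129 to 136 CPM, and both were lower in each. Cells held them as well, at 110 to 113 CPM in control, 196 to 211 in knockdown and 22.3 to 24.5 in knockout cells. Against control cells both arms were higher in knockdown cells and lower in knockout cells by edgeR's test.

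Single markers were called lower as well. The erythroid and stromal ones named were the 2 of each list highest in control EVs. That choice favoured a lower level in the other EVs. In knockdown and then knockout EVs the log2 difference was -6.76 and -7.21 for miR-451a, -4.46 and -3.86 for miR-486-5p, and -4.68 and -6.72 for miR-143-3p. It was -4.50 and -4.36 for miR-126-5p, and -2.96 and -3.72 for miR-126-3p. miR-199a-3p had 0 counts in knockdown EVs and a difference of -4.97 in knockout EVs. The erythroid miRNA that was not called in either line was miR-486-3p (adjusted p = 0.218 and 0.76), named after its values were seen. The 4 striated muscle miRNAs had 26.2 to 39.8 CPM in control EVs and 0 counts in knockdown EVs. In knockout EVs they had 2.13 to 2.21 CPM. Nearly all of the control EV sum was miR-1-3p (mean 31.6 of 33.0 CPM), and only miR-1-3p could be tested. It passed the low-count filter only through control EVs. The 6 epithelial miRNAs summed to 179 to 201 CPM in control EVs, 417 to 425 in knockdown EVs and 323 to 324 in knockout EVs. Of the 5 tested, 2 were higher in knockdown EVs and 3 in knockout EVs, and 0 were lower. Over all miRNAs tested, 18.9% were higher in each of these groups. Which sources these markers came from, and their part in the levels of miR-142, miR-150 and miR-223, was not tested.

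**Figure D5:**
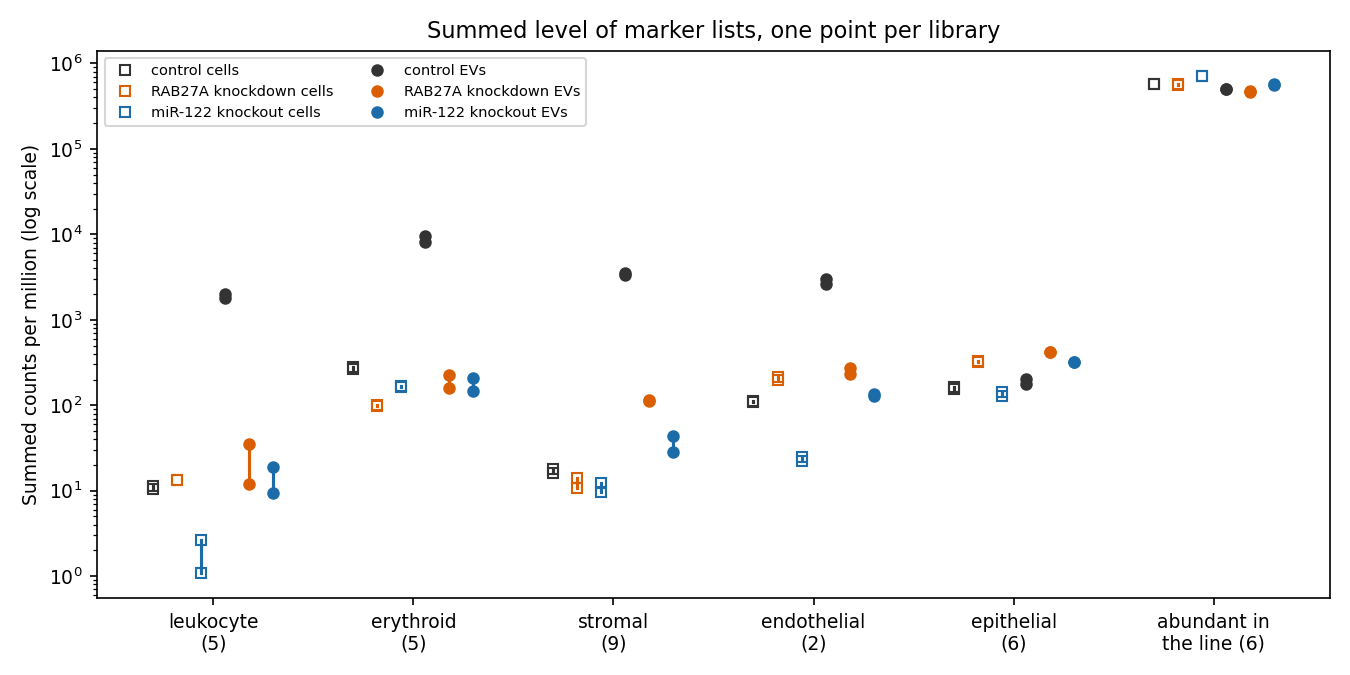
Summed level of the 5 leukocyte miRNAs and of the marker lists in every library, in CPM on a log axis, 1 point per library. Control EVs are highest for the leukocyte, erythroid, stromal and endothelial lists and not for the epithelial list.

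Other miRNAs used as leukocyte markers did not move as one group. Of the 8 listed, 5 could be tested in EVs. In knockdown EVs 2 were higher and 3 lower than in control EVs. In knockout EVs 1 was higher and 3 lower. Over the 488 miRNAs tested, 18.9% were higher in each, 27.5% lower in knockdown EVs and 22.3% lower in knockout EVs. miR-146a-5p, which restrains innate immune signalling, rose by 3.49 (SE 0.12) in knockdown EVs and by 1.02 (SE 0.11) in knockout EVs on the log2 scale. miR-181a-5p, known from lymphocyte development, rose by 1.25 (SE 0.10) in knockdown EVs and was 0.26 (SE 0.10, adjusted p = 0.0527) in knockout EVs. These 2 were abundant in control cells, at means of 4769 CPM for miR-146a-5p and 4018 CPM for miR-181a-5p. Other listed miRNAs were not: miR-155-5p, named after its values were seen, had 0 counts in control cells and a mean of 70.1 CPM in control EVs. By comparison the median log2 difference of the 5, with those at 0 set at their bound, was -5.26 in knockdown EVs and -6.42 in knockout EVs. The medians of all miRNAs tested were -0.29 and 0.03. miR-150-5p, miR-223-3p and miR-223-5p passed the low-count filter only through control EVs, which pushes the medians of the 5 down. In knockdown EVs their values were bounds.

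The levels of the 5 varied together across libraries. Over the 12 libraries the Pearson correlation of log2(CPM + 1) was 0.9966 between the arms of miR-142 and 0.9997 between miR-150-5p and miR-223-3p, and between 0.9225 and 0.979 for the other pairs. Among 636 other miRNAs with at least 50 counts, those most like the mean of the 5 were miR-432-5p (r = 0.9899), miR-381-3p (0.9898), miR-144-5p (0.9895), miR-370-3p (0.9893) and miR-412-5p (0.9891). Each of these had 0 counts in knockdown EVs, from 304 CPM for miR-144-5p to 9.61 CPM for miR-370-3p in control EVs. The libraries share lines and depth, control EVs lie apart from the rest, and these correlations are a description.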

How the data were processed

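Size-selected small RNA libraries of cells and EVs were sequenced; the authors deposited whole-number counts per mature miRNA, not normalized. The submitters' processing notes name cutadapt, Bowtie and build hg19 (GRCh38 coordinates in the text belong to the RefSeq sequences). Tool versions, miRNA annotation and the handling of reads that match several miRNAs: not given in the sources used here.

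CPM was computed from total counts, with exact Poisson intervals, and 0 counts were given a limit of 3 counts over the group. Ratios of pooled counts carry exact binomial 95% intervals. Intervals and limits cover counting error only, since no molecular identifiers are recorded. Tests used edgeR's quasi-likelihood method (edgeR 4.0.16, limma 3.58.1, R 4.3.3) on all miRNAs passing filterByExpr, with TMM factors, robust dispersion and Benjamini-Hochberg adjustment at 0.05. Lines were compared within cells or within EVs, and EVs with cells on all 12 libraries. The SE is the log2 difference over the square root of F and can be smaller than counting error at low counts.

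The 5 members were named in each comparison, with the 2 list members highest in control EVs and the 5 miRNAs most like the members. Members and lists were chosen with earlier results of these data known. DESeq2 1.42.0, other scalings, no filter, a GC correction, the replicate block and leaving out each library were the alternatives.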

Additional observations from a re-analysis of the deposited data

Results flagged for a closer look

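The EV to cell difference changed between lines by edgeR's interaction test with Benjamini-Hochberg adjustment. In the knockdown line it was -5.69 relative to the control line for miR-142-3p and -6.72 for miR-142-5p on the log2 scale. These rest on 3 and 5 counts in knockdown EVs. In the knockout line the difference was -3.95 for miR-142-3p, -4.66 for miR-142-5p and -8.32 for miR-150-5p. The last rests on 1 count in knockout cells, and miR-150-5p passed the low-count filter only through control EVs.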

How the results depend on the processing

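No called log2 difference of the 5 miRNAs reversed. In 6 of the 11 comparisons the number of them called was the same under every alternative run. With DESeq2 it went from 2 to 4 for the change of the EV excess in the knockdown line, from 3 to 4 for that in the knockout line, and from 5 to 4 for EVs against cells of the control line. For knockdown against control EVs it went from 5 to 4 under 7 alternatives. In the knockout line it went from 4 to 3 for EVs against cells when only its 4 libraries were fitted, where miR-150-5p did not pass the low-count filter, and from 3 to 2 for the change of the EV excess without knockout cells replicate 2. For the miRNAs most like the members, 2 of the 5 were shared with a pseudocount of 10 and 2 with EV libraries only. With the replicate block 5 of the 5 were lower in knockout EVs and 4 in knockdown EVs, where miR-223-5p was no longer called (adjusted p = 0.0721). Same-numbered samples did not detectably deviate together (r from -0.05 to 0.07 over 15 group pairs). With 2 libraries per group and counting error in them, this cannot exclude that they shared a culture.

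Over all miRNAs, calls for knockdown against control cells went from 330 to 196 and 218 without either knockdown cell library, and for knockout against control EVs from 201 to 127 without control EVs replicate 2. Scaling by total counts moved the median of all miRNAs by -0.37 in knockout against control EVs, and the share of calls that were higher from 45.8% to 19.2%. The same scaling moved the share of calls that were higher from 44.5% to 32.4% in knockout against control cells (median by -0.34), from 47.6% to 36.9% in knockout against knockdown cells (by -0.31), and from 56.3% to 35.3% in knockout against knockdown EVs (by -0.41). In EVs against cells of the knockdown line the share went from 37.8% to 75.6% (median by 0.29), and for the change of the EV excess in that line from 23.4% to 52.6% (by 0.33). The GC correction moved the share from 40.7% to 56% in knockdown against control EVs (median by 0.37), from 56.3% to 40.8% in knockout against knockdown EVs, from 37.8% to 60.9% in EVs against cells of the knockdown line, and from 23.4% to 53.2% for the change of the EV excess there. Depth limits the knockdown EVs most: 0 counts there allow a level of up to 8.96 CPM.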

Other observations

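The summed level of the 5 miRNAs varied between replicates more in some groups than in others. It was 12.1 and 35.2 CPM in knockdown EVs, 18.9 and 9.47 CPM in knockout EVs, and 1.08 and 2.64 CPM in knockout cells. In control EVs the replicates differed by 1.13-fold. In knockout EVs replicate 1 also held 4.69 times the miR-451a of replicate 2 and 6.41 times the miR-144-3p, both erythroid, and 2.03 times the miR-143-3p. The other named stromal marker, miR-199a-3p, stood at 0.912 times, miR-126-3p at 0.913 and miR-100-5p, abundant in the line, at 0.970 times.

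Of the other leukocyte miRNAs, miR-155-5p, made in activated lymphocytes and myeloid cells, fell by 6.12 (SE 0.31, adjusted p = 1.11e-08 by edgeR) in knockout EVs on the log2 scale. In knockdown EVs it had 0 counts and was called lower as well (adjusted p = 6.6e-05 by edgeR). miR-342-3p fell by 2.02 (SE 0.24) in knockdown EVs and by 3.42 (SE 0.17) in knockout EVs. In cells it had a mean of 180 CPM in the control line. It was lower by 2.67 (SE 0.15) in knockout cells and higher by 0.35 (SE 0.13) in knockdown cells. Both miR-155-5p and miR-342-3p were chosen after their values were seen. miR-155-5p passed the low-count filter only through control EVs, so its direction was close to fixed in advance. From the same list miR-146a-5p rose in EVs of both altered lines and miR-181a-5p in knockdown EVs, as given above.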
